A study of Homo sapiens with 9 samples.

Results

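The 9 growth factor receptor genes with a record as drivers of glioma (EGFR, ERBB2, ERBB3, PDGFRA, PDGFRB, MET, FGFR1, FGFR3 and AXL) examined here were taken by symbol from a table of 19356 genes, and all 9 passed the filter on low values that left 16457 genes to test. The RNA came from LN229, an established glioblastoma cell line, grown in DMEM with 5% FBS. In all, 3 groups of 3 libraries of polyadenylated RNA were compared: B3 and C4, which are lines in which ARNT2 was targeted by CRISPR, and WT, the LN229 cells without that targeting. ARNT2 codes for a transcription factor of the bHLH-PAS family, and the study asked what it does in the proliferation and differentiation of glioblastoma cells. B3 and C4 are 1 line each, so the targeting of ARNT2 and any other property of a line cannot be told apart. Whether replicate libraries stem from separate cultures is not stated in the labels, and the p-values therefore cover only the spread between these libraries, which may be technical.

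Receptor tyrosine kinases span the cell membrane. They bind a growth factor outside the cell, pair with another receptor, and phosphorylate each other and docked adaptors inside it, which feeds the RAS-ERK and the PI3K-AKT cascades. In glioblastoma the genes of EGFR, PDGFRA and MET are recurrently amplified or activated, and AXL is linked to invasive, mesenchymal-like tumour cells.

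Values are on a log2 scale that the authors had adjusted for differences between libraries, and read depth is unknown. ARNT2 itself lay between 11.86 and 11.91 in B3, between 12.05 and 12.22 in C4 and between 13.56 and 13.59 in WT, with an exact two-sided permutation p of 0.1 for each line, the smallest that 3 against 3 libraries allow. Of the glioma and astroglial markers, VIM (17.88 to 18.19 as group means), CD44, S100B, NES and FABP7 were high, whereas the astrocyte markers ALDH1L1 (1.29 to 1.31), AQP4 (3.93 to 3.97) and SOX9 (4.12 to 4.19) were near the bottom of the scale and GFAP was low at 6.63 to 6.88. Immune markers were low, with MS4A1 at 0.83 to 0.84 and PTPRC at 2.35 to 2.38, apart from CD68 at 10.69 to 10.97. WT replicate 1 held the highest of the 3 WT values for 9 of 9 receptor genes, by 0.046 to 0.13 over the mean of the other two, against 37.6% of all tested genes. Every receptor call described below was also made without that library.

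Receptor RNA was mostly lower in the knockout lines. In B3 against WT, 8 of the 9 genes fell, 0 rose and 1 did not pass the test, with a median log2 change of -0.21, where 47.9% of all tested genes were called. In C4 against WT, 8 fell and 1 rose, with a median of -0.24, where 56.2% of all tested genes were called. The medians over all tested genes were 0 and 0.001. Calls were common in this data set: by limma with Benjamini-Hochberg adjusted p under 0.05, 24.6% of tested genes were lower and 23.2% higher in B3, and 28% were lower and 28.2% higher in C4. All B3 libraries lay below all WT libraries for 8 of the 9 receptor genes, against 27.4% of tested genes, and all C4 libraries did for 8, against 30.2%. The 9 genes were chosen with earlier results of these data known, so these counts describe the set and do not test it. When each library was brought to an equal summed antilog, the share of called genes that were higher was 64.2% in B3, against 48.5% with the deposited scaling, and 61.5% in C4, against 50.2%, and each receptor gene called in either comparison kept its direction. Both comparisons use the same 3 WT libraries, so they are not independent of each other. Changes below are log2 changes ± SE from that fit, with n = 3 libraries per group.

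**Figure D1:**
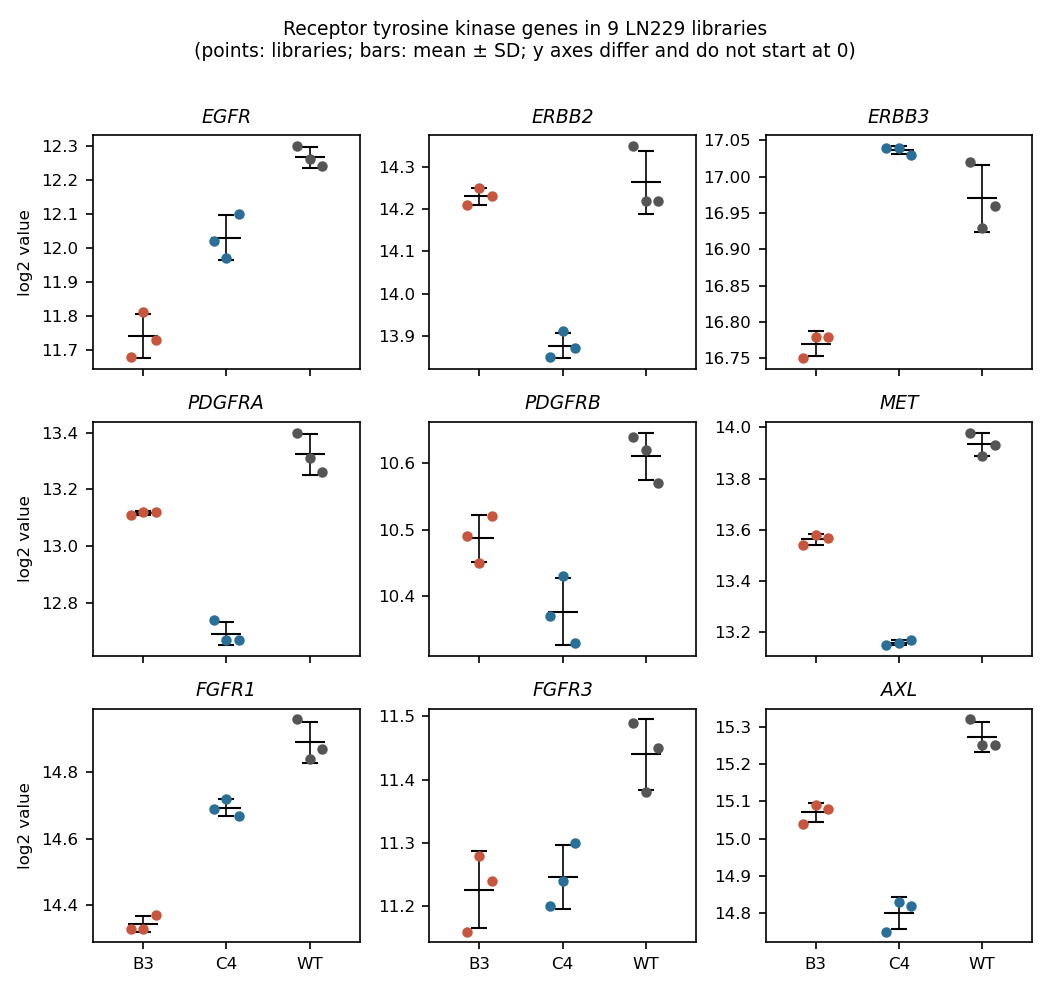
Log2 values (y axis) of the 9 receptor genes in B3, C4 and WT libraries (x axis); points are libraries and bars the mean ± SD of 3. The 3 WT points lie highest in the panels of EGFR, PDGFRA, PDGFRB, MET, FGFR1, FGFR3 and AXL, whereas B3 overlaps WT for ERBB2 and C4 lies above WT for ERBB3.

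Among the EGF receptor family, EGFR binds EGF, TGF-alpha and related ligands. EGFR (ENSG00000146648.17, chromosome 7, 55019021 to 55211628, plus strand, GRCh38) had log2 values of 11.68, 11.81 and 11.73 in B3, 12.02, 11.97 and 12.10 in C4, and 12.30, 12.26 and 12.24 in WT. The 3 groups did not overlap, with B3 lowest and C4 between B3 and WT. EGFR fell by 0.53 ± 0.04 in B3 (adjusted p = 2.13e-11), to 69.5% of the WT level, and by 0.24 ± 0.04 in C4 (adjusted p = 4.03e-06), to 84.9%. The B3 change was lower than that of all but 1.28% of tested genes. The antisense gene EGFR-AS1, which overlaps EGFR, lay at 1.63 to 1.66 over the 9 libraries. RefSeq lists more than 1 start site of EGFR (GRCh38.p14). The window of the upstream one (chr7:55018767-55019066, plus strand) is shown because EGFR had one of the strongest decreases of the set in B3. It holds 250 bases before the start site and 50 from it, with 75.3% G and C. Capitals mark matches to GGGCGG on either strand, the GC box bound by Sp1-type factors; 45% of all promoter windows of the table and 62.7% of those of tested genes hold one.
EGFR: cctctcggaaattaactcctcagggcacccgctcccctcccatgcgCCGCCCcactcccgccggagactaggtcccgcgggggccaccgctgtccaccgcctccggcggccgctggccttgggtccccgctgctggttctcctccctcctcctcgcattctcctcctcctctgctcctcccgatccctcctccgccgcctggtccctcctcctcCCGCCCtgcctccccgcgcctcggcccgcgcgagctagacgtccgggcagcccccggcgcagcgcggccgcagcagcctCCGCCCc

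ERBB2 has no known soluble ligand and serves as the preferred partner of the other family members. ERBB2 (ENSG00000141736.13, chromosome 17, 39687914 to 39730426, plus strand) had 14.21, 14.25 and 14.23 in B3, 13.85, 13.91 and 13.87 in C4, and 14.35, 14.22 and 14.22 in WT. The C4 libraries were lowest and stood apart from the others, while B3 and WT overlapped. ERBB2 changed by -0.39 ± 0.03 in C4 (adjusted p = 9.16e-11), to 76.5% of WT, and the difference of -0.03 ± 0.03 in B3 did not pass the test (adjusted p = 0.391) and was 0.01 without WT replicate 1. Its gene body overlaps those of PGAP3 and MIEN1 (11.87 to 12.05 over the libraries) on the other strand. The sources used here do not say whether counting used strand, so reads in the overlap cannot be told apart.

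ERBB3 is a neuregulin receptor with a weak kinase that signals through its partners and recruits PI3K. ERBB3 (ENSG00000065361.15, chromosome 12, 56076799 to 56103505, plus strand) had 16.75, 16.78 and 16.78 in B3, 17.04, 17.04 and 17.03 in C4, and 17.02, 16.93 and 16.96 in WT. B3 was lowest and C4 highest, each without overlap with WT. It fell by 0.20 ± 0.03 in B3 (adjusted p = 3.48e-06), to 87.1% of WT. Its increase of 0.07 ± 0.03 in C4 passed narrowly (adjusted p = 0.039). It was not called in 10 of 19 alternative fits, among them those without B3 replicate 1 or 2, any C4 replicate, or WT replicate 2 or 3, and its adjusted p ran from 0.00167 to 0.186.

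PDGFRA and PDGFRB are the receptors of the platelet-derived growth factors, and PDGFRA marks oligodendrocyte progenitors and the proneural type of glioblastoma. PDGFRA (ENSG00000134853.11, chromosome 4, 54229097 to 54298247, plus strand) had 13.11, 13.12 and 13.12 in B3, 12.74, 12.67 and 12.67 in C4, and 13.40, 13.31 and 13.26 in WT. The groups did not overlap, with C4 lowest. PDGFRA fell by 0.63 ± 0.03 in C4 (adjusted p = 1.54e-14), to 64.6% of WT, and by 0.21 ± 0.03 in B3 (adjusted p = 4.21e-06), to 86.7%.

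PDGFRB (ENSG00000113721.13, chromosome 5, 150113837 to 150155872, minus strand) had 10.49, 10.45 and 10.52 in B3, 10.37, 10.43 and 10.33 in C4, and 10.64, 10.62 and 10.57 in WT. Both lines lay below all WT libraries. The changes were -0.23 ± 0.04 in C4 (adjusted p = 2.06e-05) and -0.12 ± 0.04 in B3 (adjusted p = 0.011). The B3 call was lost with libraries at an equal summed antilog (-0.09, adjusted p = 0.0585) and without B3 replicate 2 (-0.11, adjusted p = 0.055), and its adjusted p spanned 0.00631 to 0.0585.

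Some genes known as markers of other cell types were called as well. Of 8 tested endothelial and pericyte markers, 4 fell and 1 rose in B3 and 2 fell and 1 rose in C4. The called shares were 62.5% in B3 and 37.5% in C4, against 47.9% and 56.2% of all tested genes. The summed level of these markers was 16.89 to 16.96 in B3, 16.79 to 16.88 in C4 and 17.44 to 17.48 in WT on the log2 scale. It is mostly that of CSPG4, a proteoglycan of pericytes that glioma cells also make. The pericyte marker RGS5 had means of 10.35 in B3, 11.66 in C4 and 11.56 in WT, and the endothelial marker VWF 8.51 in B3, 8.87 in C4 and 8.92 in WT. The endothelial markers CLDN5 (4.35 to 4.38), TIE1 (4.87 to 4.93), PECAM1 (5.20 to 5.43) and KDR (6.30 to 6.42) were lower on the scale.

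Of 7 fibroblast markers, 2 rose and 1 fell in B3, and 0 rose and 3 fell in C4. The called share was 42.9% in each line, against 47.9% of all tested genes in B3 and 56.2% in C4. The fibroblast markers summed to 13.14 to 13.18 in B3, 12.48 to 12.62 in C4 and 13.17 to 13.20 in WT. LUM had a mean of 12.43 in B3, 11.62 in C4 and 12.51 in WT, while DCN had 10.68 in B3, 9.90 in C4 and 10.40 in WT and COL3A1 8.05 in B3, 7.57 in C4 and 7.71 in WT. Of 8 epithelial markers, 2 fell in B3, the keratins KRT8 (11.92 in B3, 12.51 in C4 and 12.56 in WT) and KRT18 (13.71 in B3 and 14.03 in WT), and 0 were called in C4. The epithelial markers thus had called shares of 25% in B3 and 0% in C4. Their sum was 14.12 to 14.19 in B3, 14.47 to 14.52 in C4 and 14.45 to 14.60 in WT. The labels name only LN229 cells for all 9 libraries, so these marker values do not show that cells of other types were present. Any link of the markers to the receptor values was not tested. In bulk RNA, fewer LN229 cells that express a gene and less of its RNA per cell cannot be told apart.

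MET, the receptor of hepatocyte growth factor, drives motility and invasion, and it had the largest decrease of the 9 genes in C4. MET (ENSG00000105976.14, chromosome 7, 116672390 to 116798386, plus strand) had 13.54, 13.58 and 13.57 in B3, 13.15, 13.16 and 13.17 in C4, and 13.98, 13.89 and 13.93 in WT. The groups stood well apart, with SDs between replicates of 0.017, 0.012 and 0.043. MET fell by 0.77 ± 0.02 in C4 (adjusted p = 7.33e-18), to 58.7% of WT, and by 0.37 ± 0.02 in B3 (adjusted p = 1.37e-11), to 77.4%. In C4 only 0.869% of tested genes had a lower change.

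AXL is a receptor of the TAM family and binds GAS6. AXL (ENSG00000167601.11, chromosome 19, 41219203 to 41261766, plus strand) had 15.04, 15.09 and 15.08 in B3, 14.75, 14.83 and 14.82 in C4, and 15.32, 15.25 and 15.25 in WT. As for MET, C4 was lowest, B3 lay between C4 and WT, and no groups overlapped. AXL fell by 0.47 ± 0.03 in C4 (adjusted p = 4.00e-13), to 72.2% of WT, and by 0.20 ± 0.03 in B3 (adjusted p = 8.53e-07), to 86.8%.

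The letters ACGTG are the core of a hypoxia response element, which dimers of a HIF alpha subunit with ARNT bind, and ARNT is also known to bind the palindrome CACGTG, which contains ACGTG on both strands. Other dimers bind other cores, such as the GCGTG of AHR with ARNT, which was not searched. No RefSeq promoter window was matched for ERBB3 or FGFR1, so these genes were not searched. Windows of 300 bases were matched for the other 7 of the 9 genes, 10 windows in all. Of these, 2 held ACGTG on either strand, against 21.4% of all windows in the table and 24.7% of those of tested genes. One of the 10 held CACGTG, against 7.26% and 8.9%. The windows with a match are those of MET (chr7:116671946-116672245, plus strand, match from base 4 after the start site) and of a downstream start site of AXL (chr19:41226505-41226804, plus strand, matches that begin 98 and 73 bases before the start site). They are shown with the matches in capitals. A match is not evidence of binding, and a window without one says only that these letters are absent there.
MET: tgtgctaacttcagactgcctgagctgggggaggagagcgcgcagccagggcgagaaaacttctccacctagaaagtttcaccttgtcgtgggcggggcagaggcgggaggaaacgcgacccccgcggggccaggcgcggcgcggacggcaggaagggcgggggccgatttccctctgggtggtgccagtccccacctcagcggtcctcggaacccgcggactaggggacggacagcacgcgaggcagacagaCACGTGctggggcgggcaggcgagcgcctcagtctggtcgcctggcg
AXL: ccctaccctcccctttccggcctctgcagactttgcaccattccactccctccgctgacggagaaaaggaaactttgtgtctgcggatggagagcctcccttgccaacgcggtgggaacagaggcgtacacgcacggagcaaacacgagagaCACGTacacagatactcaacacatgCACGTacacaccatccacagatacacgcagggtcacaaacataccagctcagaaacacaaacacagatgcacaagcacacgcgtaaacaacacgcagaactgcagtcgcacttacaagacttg

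FGFR1 and FGFR3 are fibroblast growth factor receptors. FGFR1 (ENSG00000077782.20, chromosome 8, 38400215 to 38468834, minus strand) had 14.33, 14.33 and 14.37 in B3, 14.69, 14.72 and 14.67 in C4, and 14.96, 14.84 and 14.87 in WT. B3 was lowest and C4 lay between B3 and WT, the order also seen for EGFR. FGFR1 fell by 0.54 ± 0.03 in B3 (adjusted p = 6.26e-14), to 68.6% of WT, and by 0.19 ± 0.03 in C4 (adjusted p = 1.22e-06), to 87.5%. LETM2, on the other strand, overlaps FGFR1 and lay at 9.04 to 9.45.

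FGFR3 (ENSG00000068078.18, chromosome 4, 1793293 to 1808872, plus strand) had 11.16, 11.28 and 11.24 in B3, 11.20, 11.24 and 11.30 in C4, and 11.49, 11.38 and 11.45 in WT. The 2 lines overlapped each other and both lay below WT. FGFR3 fell by 0.21 ± 0.04 in B3 (adjusted p = 5.91e-05) and by 0.20 ± 0.04 in C4 (adjusted p = 0.000105).

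The lines differed from each other in most receptor genes, in both directions. In C4 against B3, 3 receptor genes were higher, 5 lower and 1 not called, where 56.4% of tested genes were called, 28.6% higher and 27.8% lower. The C4 libraries lay below all B3 libraries for 5 receptor genes, against 30.9% of tested genes. FGFR1 was higher in C4 by 0.35 ± 0.03 (adjusted p = 6.18e-11), EGFR by 0.29 ± 0.04 (adjusted p = 2.04e-07) and ERBB3 by 0.27 ± 0.03 (adjusted p = 2.10e-08). PDGFRA was lower in C4 by a change of -0.42 ± 0.03 (adjusted p = 1.79e-11), MET of -0.40 ± 0.02 (adjusted p = 1.24e-12), ERBB2 of -0.35 ± 0.03 (adjusted p = 3.72e-10) and AXL of -0.27 ± 0.03 (adjusted p = 8.00e-09). PDGFRB changed by -0.11 ± 0.04 (adjusted p = 0.0219), a call lost without B3 replicate 1 (adjusted p = 0.0544), B3 replicate 3 (0.0859) or C4 replicate 3 (0.11). FGFR3 differed by 0.02 ± 0.04 and did not pass (adjusted p = 0.741), with -0.02 to 0.04 over the alternatives. EGFR, FGFR1 and ERBB3 were thus lowest in B3, and MET, PDGFRA, AXL, ERBB2 and PDGFRB lowest in C4.

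**Figure D2:**
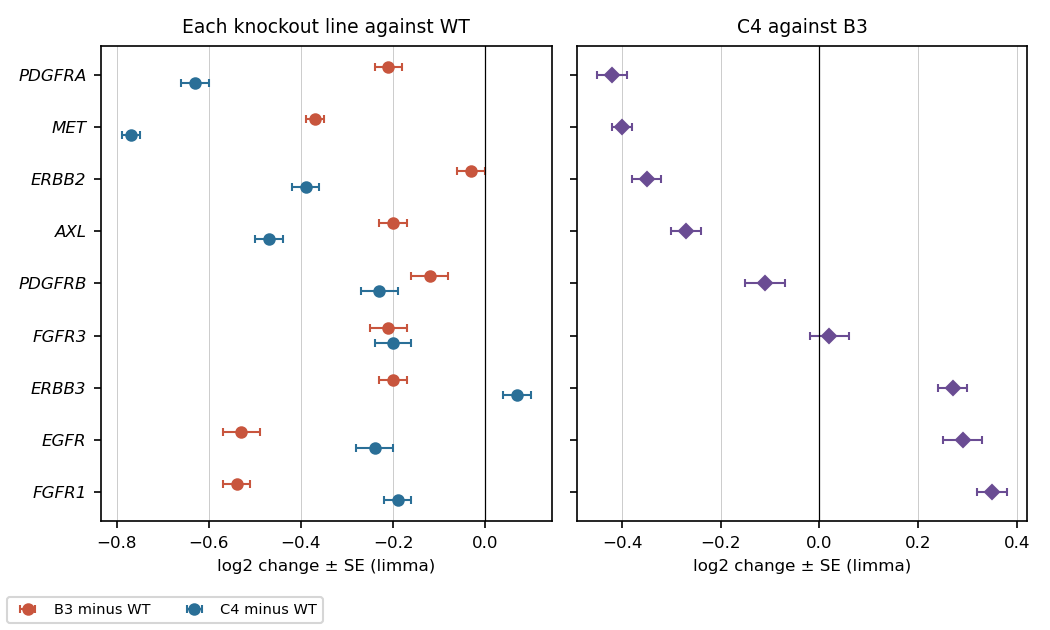
Log2 changes ± SE (x axis) of the 9 receptor genes (y axis), at left for B3 and C4 against WT and at right for C4 against B3. PDGFRA, MET, ERBB2, AXL and PDGFRB lie left of 0 in the right panel, and ERBB3, EGFR and FGFR1 at 0.27, 0.29 and 0.35.

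Levels of the 9 receptor genes were ranked against each other only after division by the union of annotated exon lengths, as antilogs per kilobase. The marker values and sums given above are not divided by length. ERBB3 was the most abundant receptor at 12361 ± 143 in B3, 14891 ± 42.8 in C4 and 14191 ± 448 in WT (SD, n = 3). It made up 47.6%, 55.5% and 46.6% of the summed level of the 9 genes in B3, C4 and WT. AXL followed at 6667 ± 134 in B3, 5548 ± 163 in C4 and 7683 ± 216 in WT. MET, FGFR1 and ERBB2 formed a middle group of 1303 to 2219 over the 3 groups. In WT, MET (2219 ± 66.5) and FGFR1 (2192 ± 92.7) overlapped between libraries, and they were the only neighbours in the order that did so in any group. In C4 the order of these 3 was FGFR1, ERBB2, MET, against ERBB2, MET, FGFR1 in B3 and MET, FGFR1, ERBB2 in WT. PDGFRA lay at 914, 681 and 1054 in B3, C4 and WT, and FGFR3 at 495, 501 and 574. EGFR was eighth, at 274 ± 12.3 in B3, 334 ± 15.6 in C4 and 394 ± 9.32 in WT, and PDGFRB was lowest at 201, 187 and 219. The order within the middle group depended on which transcript length was used.

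**Figure D3:**
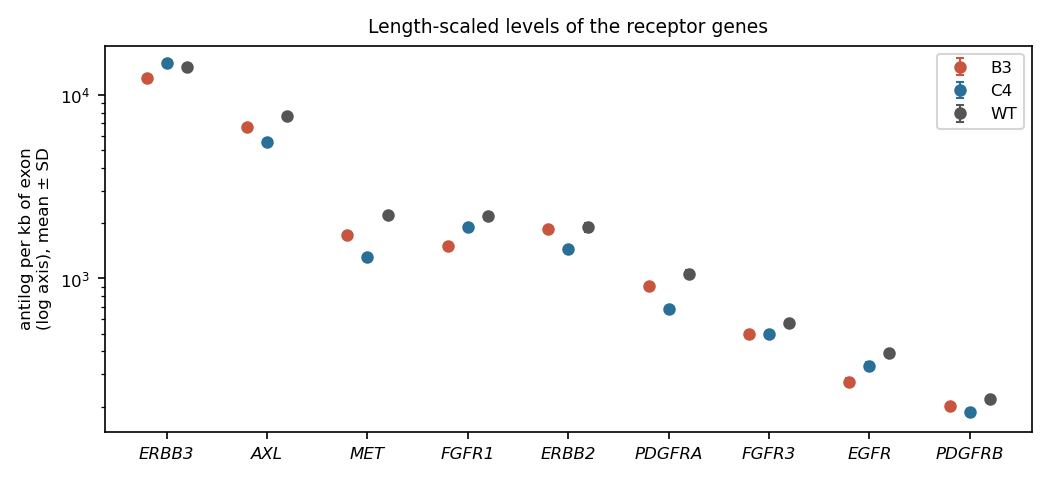
Antilog per kilobase of exon (log y axis), mean ± SD of 3 libraries, for the 9 receptor genes (x axis, by WT level) in B3, C4 and WT. ERBB3 is highest in every group, at 12361 to 14891, and PDGFRB lowest, at 187 to 219; most error bars are smaller than the points.

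To set each receptor gene beside its chromosomal surroundings, its neighbours were listed. For each receptor gene the 10 nearest tested genes on either side were taken, and the numbers are a description with no test. Around ERBB3, a stretch of 0.42 Mb, 17 of 20 neighbours were higher and 1 lower in C4 against B3, with a median of 0.24 beside 0.27 for ERBB3 itself, and 11 of 20 were lower and 1 higher in B3 against WT. In C4 against WT, 12 of the 20 were higher and 2 lower, with a median of 0.10 beside 0.07 for ERBB3. Around FGFR1, 14 of 20 neighbours were lower and 0 higher in B3, with a median of -0.11 beside -0.54 for FGFR1. In C4 against B3, 14 of them were higher and 1 lower, with a median of 0.14 beside 0.35 for FGFR1. Around EGFR, 11 were lower and 0 higher in B3, with a median of -0.10 beside -0.53 for EGFR. In C4 against B3, 12 of these were higher and 5 lower, with a median of 0.11 beside 0.29 for EGFR. For both FGFR1 and EGFR, 0 of the 20 neighbours had a lower change in B3 than the receptor gene. With 20 neighbours on each side this held for FGFR1, with 0 of 40, but not for EGFR, below which lay 4 of 40, down to -1.39.

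In C4 against WT the neighbours of PDGFRA had a median of -0.02 and a lowest value of -0.19, beside -0.63 for PDGFRA. Those of AXL had a median of -0.01 and a lowest value of -0.34, beside -0.47 for AXL. MET's neighbours had a median of -0.08, with 10 lower and 1 higher, and 1 of the 20 had a lower change than MET (-1.11 against -0.77). ERBB2's neighbours had a median of 0.03, and 1 of 20 (-0.65) had a lower change than ERBB2 (-0.39). PDGFRB's neighbours had a median of 0.07, with 8 higher and 2 lower, beside -0.23 for PDGFRB, and 1 of 20 (-0.25) was lower. FGFR3's neighbours had a median of 0.04, beside -0.20 for FGFR3, and 1 of 20 (-0.21) was lower. In B3 against WT the lowest neighbour was at -0.09 for FGFR3 and at -0.11 for PDGFRA, beside -0.21 for each of these receptor genes. With 20 neighbours on each side, 1 of 40 lay below each of them in B3.

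**Figure D4:**
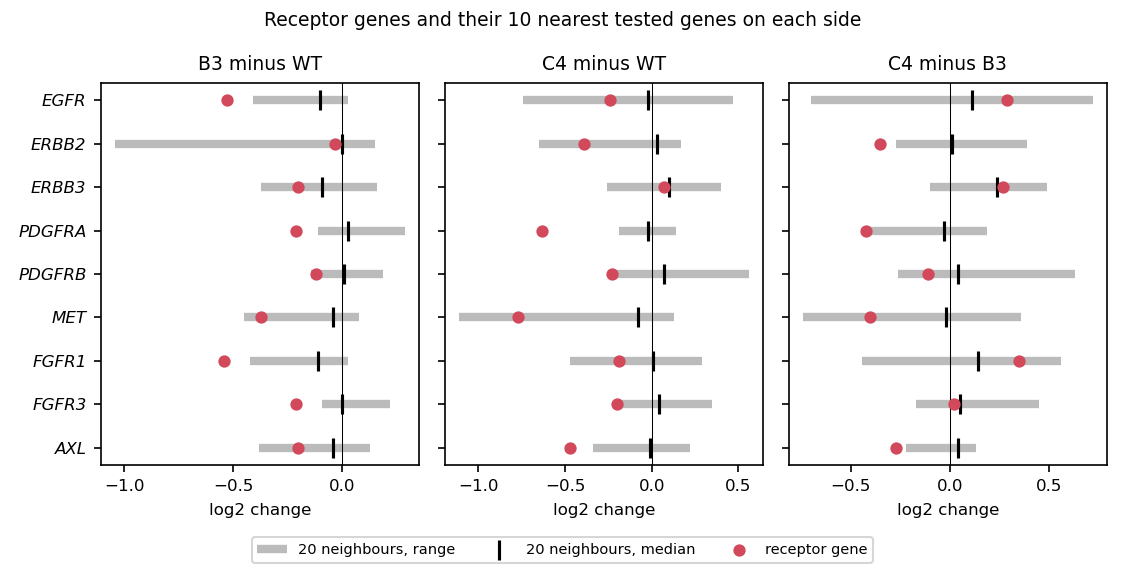
Log2 changes (x axis) of each receptor gene (red points) and of its 20 nearest tested genes (grey bar, range; black tick, median) in the 3 comparisons. ERBB3 in C4 against B3 (0.27) lies near its neighbours' median (0.24). Below the whole range of their neighbours lie EGFR, PDGFRA, FGFR1 and FGFR3 in B3 against WT and PDGFRA and AXL in C4 against WT. The same holds for ERBB2, PDGFRA and AXL in C4 against B3.

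Ligand genes of these receptors were called lower more often than higher. Of 20 tested, 2 rose and 10 fell in B3 (median -0.12) and 3 rose and 9 fell in C4 (median -0.07). The share called was 60% in each line, against 47.9% of all tested genes in B3 and 56.2% in C4. PDGFA, the main ligand of PDGFRA, had 14.69, 14.70 and 14.78 in B3, 15.13, 15.18 and 15.15 in C4, and 15.31, 15.30 and 15.33 in WT. It was lower in both lines without overlap, by -0.59 ± 0.02 in B3 (adjusted p = 5.76e-15) and -0.16 ± 0.02 in C4 (adjusted p = 8.74e-06). GAS6, the ligand of AXL, rose by 0.52 ± 0.04 in C4 (adjusted p = 4.03e-10) and was at -0.06 in B3 (adjusted p = 0.239), so that in C4 it moved opposite to AXL. The weakly expressed FGF10 changed by -0.67 ± 0.05 in B3 and -0.83 ± 0.05 in C4, and FGF1 by 0.50 ± 0.05 in C4.

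TGFA, HBEGF and PDGFB were picked after their values were seen. TGFA, a ligand of EGFR, rose by 0.21 ± 0.03 in B3 and changed by -0.25 ± 0.03 in C4, and its difference between C4 and B3 was -0.47. HBEGF, another EGFR ligand, changed by -0.44 ± 0.04 in B3 and by -0.09 ± 0.04, not called (adjusted p = 0.0699), in C4, where it was called without WT replicate 3 (-0.12). PDGFB changed by -0.24 ± 0.04 in B3 and by 0.36 ± 0.04 in C4. The MET ligand gene HGF did not pass the filter and lay at 2.50 to 2.56 over the 9 libraries, and the EGFR ligand gene AREG at 2.87 to 2.95.

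Co-receptors and ligand-processing proteases gave 4 higher and 7 lower of 14 in B3 and 6 higher and 5 lower in C4. The called share was 78.6% in each line, against 47.9% of all tested genes in B3 and 56.2% in C4. SDC2, a heparan sulfate proteoglycan, had the widest gap between lines: 12.23, 12.21 and 12.34 in B3, 13.66, 13.60 and 13.68 in C4, and 12.66, 12.63 and 12.60 in WT. It rose by 1.02 ± 0.03 in C4 (adjusted p = 4.43e-18) and changed by -0.37 ± 0.03 in B3 (adjusted p = 8.44e-10). SDC4, a syndecan that binds FGF2, changed by -0.48 ± 0.02 in C4 and -0.23 ± 0.02 in B3. LRP1, an endocytic receptor that modulates PDGFRB, changed by -0.60 ± 0.05 in B3. NRP1, a co-receptor, rose by 0.44 ± 0.03 in B3 and by 0.19 ± 0.03 in C4.

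Downstream of the receptors, the adaptors and proximal effectors gave 5 higher and 8 lower of 31 in B3 and 12 higher and 6 lower in C4. The called shares of 41.9% in B3 and 58.1% in C4 were near those of all tested genes. PIK3R3, a regulatory subunit of PI3K, had 13.26, 13.25 and 13.21 in B3, 13.25, 13.31 and 13.29 in C4, and 12.63, 12.53 and 12.59 in WT. It rose by 0.65 ± 0.03 in B3 (adjusted p = 3.80e-15) and by 0.70 ± 0.03 in C4 (adjusted p = 3.46e-16), without overlap. PIK3R2, another such subunit, rose by 0.19 ± 0.03 in B3 and 0.26 ± 0.03 in C4. FRS2, the docking protein of FGF receptors, changed by -0.25 ± 0.03 in B3 and 0.12 ± 0.03 in C4. VAV3 rose by 0.25 ± 0.04 in B3.

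The RAS-ERK and AKT cascade genes gave 7 higher and 5 lower of 18 in B3 and 8 higher and 5 lower in C4, with medians of 0.03 and 0.05. Their called shares were 66.7% in B3 and 72.2% in C4, against 47.9% and 56.2% of all tested genes. MTOR, a kinase downstream of AKT, rose by 0.12 ± 0.02 in B3 and 0.22 ± 0.02 in C4, and NF1, which switches RAS off, by 0.20 ± 0.03 in C4.

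Inhibitors that act on the receptors gave 7 higher and 10 lower of 23 in B3 and 7 higher and 9 lower in C4. Their called shares were 73.9% in B3 and 69.6% in C4, against 47.9% and 56.2% of all tested genes. ERRFI1, an inducible inhibitor of EGFR family kinases, had 14.69, 14.66 and 14.64 in B3, 14.22, 14.23 and 14.18 in C4, and 14.81, 14.87 and 14.86 in WT. It was lowest in C4, with changes of -0.64 ± 0.02 in C4 (adjusted p = 2.60e-16) and -0.18 ± 0.02 in B3 (adjusted p = 1.34e-06). LRIG1, which promotes receptor degradation, fell by 0.20 ± 0.03 in B3 and by 0.28 ± 0.03 in C4. LRIG3 changed by -0.39 ± 0.03 in C4 and by 0.11 ± 0.03 in B3, the second lost without WT replicate 2 (0.07, adjusted p = 0.0665). The phosphatase gene PTPRG rose by 0.16 ± 0.04 in B3 and 0.33 ± 0.04 in C4.

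Genes that ERK signalling is known to induce gave 4 higher and 9 lower of 19 in B3 (median -0.06) and 4 higher and 12 lower in C4 (median -0.15). Their called shares were 68.4% in B3 and 84.2% in C4, against 47.9% and 56.2% of all tested genes. IER3 changed by -0.62 ± 0.02 in C4 and -0.19 ± 0.02 in B3. FOSL1 changed by -0.40 ± 0.02 in C4 and by 0.17 ± 0.02 in B3, and MYC by -0.40 ± 0.06 in C4. MYC lies on chromosome 8, from 127735434 to 127741434, and whether its chromosomal neighbours changed with it was not tested. The EGR1 values of 15.37 to 15.48 in B3, 15.21 to 15.36 in C4 and 16.25 to 16.32 in WT did not overlap between the lines and WT. Picked after their values were seen, the ERK phosphatase gene DUSP6 changed by -0.10 ± 0.02 in B3 and -0.21 ± 0.02 in C4, the ETS factor gene ETV4 by -0.20 ± 0.02 in B3 and -0.38 ± 0.02 in C4, and the feedback inhibitor gene SPRY4 by -0.27 ± 0.03 in B3 and 0.01 ± 0.03 in C4. Of the genes that rose, also picked after their values were seen, the ERK phosphatase gene DUSP4 changed by 0.01 ± 0.02 in B3 and 0.38 ± 0.02 in C4, HMGA2 by 0.12 ± 0.04 in B3 and 0.31 ± 0.04 in C4, and the feedback inhibitor gene SPRY1 by 0.33 ± 0.04 in B3 and -0.22 ± 0.04 in C4.

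The other receptor tyrosine kinases were less one-sided: of 35 tested, 9 rose and 14 fell in B3 (median -0.02) and 7 rose and 17 fell in C4 (median -0.07). Their called shares were 65.7% in B3 and 68.6% in C4, against 47.9% and 56.2% of all tested genes. The difference between the 9 receptor genes and these 35 was not tested. EPHB1, an ephrin receptor, had 9.37, 9.36 and 9.38 in B3, 10.32, 10.23 and 10.36 in C4, and 9.04, 9.02 and 8.91 in WT. It rose by 1.31 ± 0.05 in C4 (adjusted p = 7.14e-17) and by 0.38 ± 0.05 in B3 (adjusted p = 3.78e-07). The collagen receptor gene DDR2 changed by -0.57 ± 0.02 in C4 and 0.15 ± 0.02 in B3. The ephrin receptor gene EPHA6 fell in both lines, by 0.58 ± 0.05 in B3 and 0.67 ± 0.05 in C4. AATK changed by -0.54 ± 0.05 in B3. A further 11 kinase genes of the family did not pass the filter, with RET at 1.78 to 1.80 and ROS1 at 1.25 to 1.29.

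**Figure D5:**
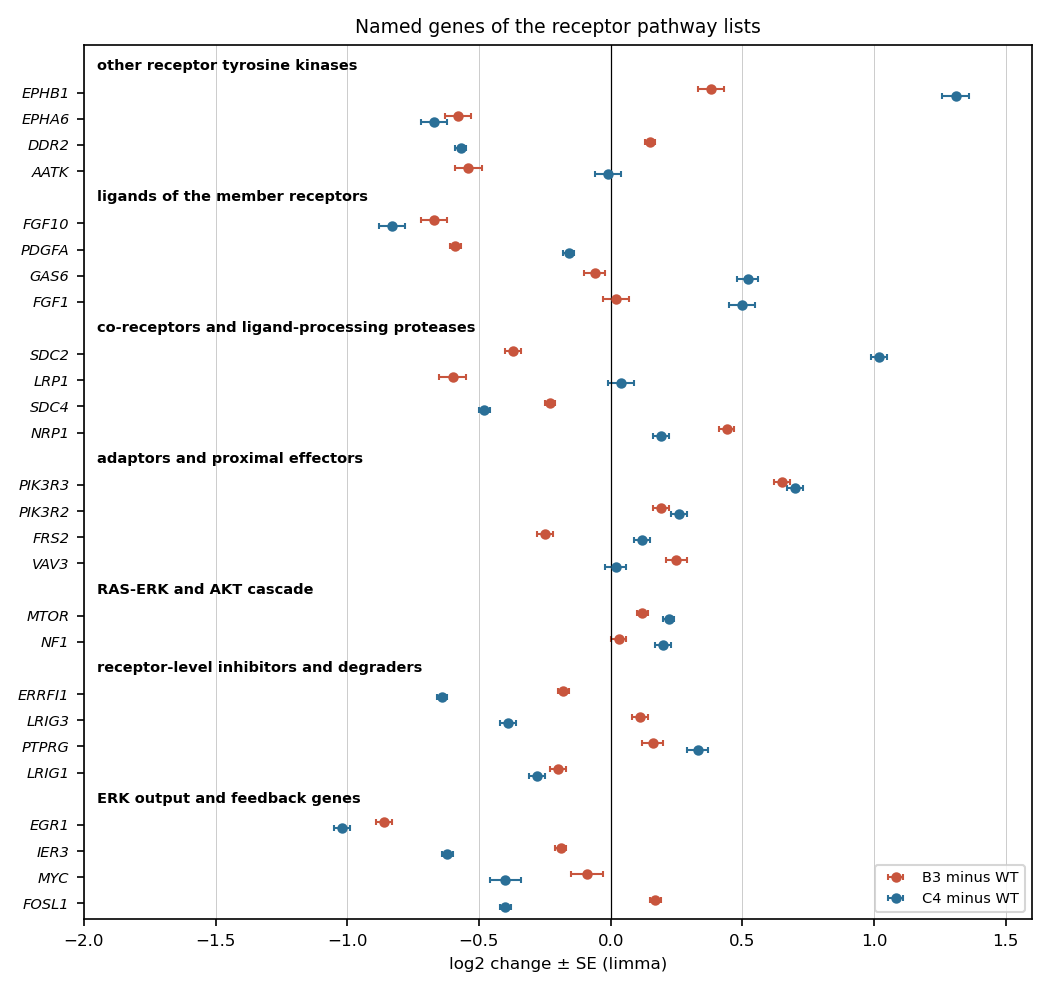
Log2 changes ± SE (x axis) of the named genes of 7 receptor pathway lists (y axis) in B3 and C4 against WT. EPHB1 and SDC2 reach 1.31 and 1.02 in C4, PIK3R3 lies at 0.65 and 0.70, and EGR1 lies at -0.86 in B3 and -1.02 in C4.

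For the 6 receptor genes with a change of at least 0.25, the named genes with the most similar values were those with the smallest Euclidean distance over the 9 libraries after centring each gene. The libraries fall into the 3 groups, so this distance mostly reflects the group means. For MET they were the integrin genes ITGA5 (distance 0.057) and ITGB3 (0.064) and the axon guidance gene SLIT2 (0.086). For AXL they were SDC4 (0.045), SRPX2 (0.068) and the integrin gene ITGAV (0.076), and for PDGFRA they were IER3 (0.107), NFKB2 (0.119) and FAM132B (0.122). For EGFR they were BOC (0.146), ANKRD6 (0.155) and PPP1R26 (0.157), and for FGFR1 GUSB (0.104) and KLK6 (0.111). For ERBB2 they were SLC35F5 (0.08), SPIN3 (0.086) and NEMP2 (0.098).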

How the data were processed

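RNA of 9 LN229 libraries was measured by sequencing, 3 each of B3, C4 and WT. Per the submitters' processing notes, the authors used STAR 2.7.3a, Subread 1.6.3 and DESeq2 with build hg38; the order and role of these tools are not given in the sources used here. The deposited values are log2 expression values that the authors had scaled across libraries (from the values themselves), and their shape is that of a transform that shrinks weakly expressed genes, so changes of such genes may be understated; the transform is not given in the sources used here. Depth is unknown.

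Genes whose mean antilog reached 10 were tested in 1 limma fit (limma 3.58.1, R 4.3.3) over all 9 libraries, with group coefficients, an intensity trend and two-sided tests. The threshold for a call was an adjusted p of 0.05 (Benjamini-Hochberg, 16457 genes); the code was tested on simulated data. The 9 genes and the lists were chosen with earlier results of these data known. Per list, up to 4 called genes with the largest change and no overlap between groups were named. Positions and lengths are from GENCODE 29 (GRCh38) and promoters from RefSeq (GRCh38.p14). The planned comparison of protein sequences was not made, and some genes that this rule names are not reported here. Alternatives were other pseudocounts, filters, scalings and moderations, the replicate number as a block, fits without the third group and leaving out each library.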

Additional observations from a re-analysis of the deposited data

Results flagged for a closer look

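The effects of the 2 knockout lines differed, by the limma test of C4 against B3, for 8 of the 9 receptor genes. In that comparison 56.4% of all tested genes were called. The log2 difference C4 minus B3 was positive for FGFR1 (0.35), EGFR (0.29) and ERBB3 (0.27) and negative for PDGFRB (-0.11), AXL (-0.27), ERBB2 (-0.35), MET (-0.40) and PDGFRA (-0.42).

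Among the named pathway genes the same test found positive differences for SDC2 (1.39), EPHB1 (0.93), LRP1 (0.63), PDGFB (0.60), GAS6 (0.58), AATK (0.53), FGF1 (0.49), PDGFA (0.43), FRS2 (0.37), DUSP4 (0.37), HBEGF (0.35), SPRY4 (0.29), HMGA2 (0.19), NF1 (0.17), PTPRG (0.16), MTOR (0.10) and PIK3R2 (0.07). It found negative differences for DDR2 (-0.72), FOSL1 (-0.57), SPRY1 (-0.54), LRIG3 (-0.49), TGFA (-0.47), ERRFI1 (-0.45), IER3 (-0.43), MYC (-0.31), SDC4 (-0.25), NRP1 (-0.25), VAV3 (-0.23), ETV4 (-0.17), FGF10 (-0.16), EGR1 (-0.16), DUSP6 (-0.12) and LRIG1 (-0.08). For ARNT2 the difference was 0.25, with more of its RNA in C4 than in B3. The difference of PIK3R2 lost its call in 7 of 19 alternatives, among them those without B3 replicate 3 (0.04, adjusted p = 0.251) or any 1 of the C4 replicates (0.06 to 0.07). That of LRIG1 lost it without B3 replicate 2, B3 replicate 3 or C4 replicate 2 (-0.08 to -0.06).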

How the results depend on the processing

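Of 513 values of the 27 receptor results (9 genes, 3 comparisons) under 19 alternatives, 494 kept their direction and side of the threshold, 15 lost the call, and 4, none of them called, changed sign. For ERBB2 in B3 against WT the value was 0.00 at an equal summed antilog and -0.05 to 0.01 when a library was left out, and for FGFR3 in C4 against B3 it was -0.02 to 0.04. Of 1482 values of named pathway genes, 1462 kept them, 11 lost the call, 1 gained it and 8 uncalled ones changed sign (AATK in C4 against WT, 0.02 at an equal summed antilog and -0.08 to 0.05 when a library was left out; LRP1, -0.05 to 0.10, and VAV3, -0.03 to 0.06, likewise in C4; FGF1 in B3, -0.01 to 0.06), and of 513 values of the genes picked after their values were seen, 510 kept them, 2 gained a call and 1 changed sign, DUSP4 in B3 against WT (-0.01 to 0.02 when a library was left out). The count of 1 receptor gene higher in C4 against WT, which is ERBB3, was 0 with a pseudocount of 16 (0.07, adjusted p = 0.0539), with the replicate block (0.07, adjusted p = 0.0778) and without the third group (0.07, adjusted p = 0.0684), and 0 to 1 when a library was left out, with changes of 0.05 to 0.09. For PDGFRB, B3 against WT gave -0.09 at an equal summed antilog, and leaving out a library gave -0.14 to -0.11; C4 against B3 gave -0.13 to -0.08. Replicate numbers gave no pairing of the libraries: correlations of same-numbered libraries were -0.229 to 0.016 over 9 pairs. The block changed no other receptor call. The cause of these losses was not tested.

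Neighbour medians moved by more than their own SD between replicate libraries (0.0066 to 0.023) in 33 of 54 cases, given here, but by more than 0.05 in 4, of which 3 were around EGFR and 1 around FGFR1. With 5 neighbours on each side, B3 against WT gave -0.10 for EGFR, -0.05 for ERBB2, 0.00 for PDGFRA, -0.14 for FGFR1, 0.03 for FGFR3 and -0.01 for AXL; C4 against WT gave 0.09 for EGFR, 0.01 for ERBB2, 0.07 for ERBB3, -0.05 for PDGFRA, -0.05 for MET, 0.03 for FGFR1 and 0.00 for AXL; C4 against B3 gave 0.17 for EGFR, 0.03 for ERBB2, 0.21 for ERBB3, 0.06 for PDGFRB, 0.01 for MET and 0.29 for FGFR1. With 20 on each side, B3 against WT gave -0.09 for EGFR, 0.02 for PDGFRA, -0.15 for FGFR1 and -0.03 for AXL. C4 against WT gave -0.04 for EGFR, 0.09 for ERBB3 and -0.05 for MET, and C4 against B3 gave 0.02 for EGFR, 0.00 for ERBB2, 0.23 for ERBB3, 0.06 for PDGFRB, 0.01 for MET, 0.17 for FGFR1 and 0.02 for AXL. With the length of the principal transcript, chosen after seeing the data, ERBB2 was at rank 4 in WT, MET at rank 5 in B3 and WT, and FGFR1 at rank 4 in B3 and rank 3 in WT. As read depth is unknown, no limit that needs counts is given.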
